A study of Mus musculus with 76 samples.

Results

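The levels of 10 genes of Notch signalling were followed in cultures in which mouse embryonic stem cells were turned into neural cells. The genes are the receptors Notch1, Notch2 and Notch3, the ligands Dll1, Dll3 and Jag1, the receptor-modifying enzyme Lfng, and the target genes Hes1, Hes5 and Hey1. They were chosen by name, with earlier results of these data known, and all 10 were found among the 38924 genes of the deposited count table. The cultures came from 2 inbred strains, C57BL/6J (B6), the standard laboratory strain, and WSB/EiJ (WSB), a wild-derived strain, and the number of stem cell lines per strain was not given in the sources used here. RNA was taken at 3 stages, namely neural progenitor differentiation (NPC), neuronal maturation, and axonal regrowth (axon). At each stage cultures of both strains were either control or received ID-8, a small molecule that inhibits DYRK1A, a protein kinase, and axon cultures were in addition either cut (axotomized) or left uncut. Doses, days in culture and any vehicle of the controls were not given in the sources used here, and no group carries a further allele or agent per the labels.

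Notch receptors are membrane proteins that are activated by ligands on a neighbouring cell. Binding leads to cleavage by ADAM10 and then by gamma-secretase, and the freed intracellular domain joins RBPJ and Mastermind proteins on DNA and switches on genes of the Hes and Hey families. In the developing nervous system HES and HEY repressors hold back proneural factors and keep progenitors undifferentiated, while cells on the way to becoming neurons raise Delta ligands and so activate Notch next door. DLL1 and JAG1 activate receptors in trans, DLL3 is known mainly as a ligand that acts inside its own cell and does not activate neighbours, and the fringe enzyme LFNG adds a sugar to the receptors that changes how they respond to Delta and Jagged ligands.

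On build GRCm38 (annotation GENCODE M21) the receptor genes lie at chr2:26457903-26516663 (Notch1), chr3:98013527-98150361 (Notch2) and chr17:32120820-32166852 (Notch3). The ligand genes lie at chr17:15367354-15376872 (Dll1), chr7:28293553-28302238 (Dll3) and chr2:137081456-137116644 (Jag1), and Lfng at chr5:140607320-140615545. The target genes lie at chr16:30064384-30067796 (Hes1), chr4:154960923-154962371 (Hes5) and chr3:8663359-8667256 (Hey1). All 10 are protein-coding. Of 50-base windows of the transcripts, 3.76% of Notch2 and 0.087% of Notch3 occurred also in another annotated gene, and none did for the other 8.

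RBPJ is known to bind DNA at GTGGGAA, which reads TTCCCAC on its opposite strand. Both strands of the RefSeq promoter windows of GRCm38.p6, from 250 bases before to 50 after a start site, were searched for these letters. Windows were at hand for 8 of the 10 genes, all but Hes1 and Hey1, and 2 of the 8 held a match, Hes5 and Lfng. Over all genes with a window, 7.25% held one. The promoters of these 2 genes are shown because they held a match, and capitals mark the matches. Both genes moved with ID-8 in B6 progenitors, and Lfng also at maturation. Notch1, Notch3, Dll1 and Dll3 also moved with ID-8 in B6 progenitors, and their windows held no match.

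Hes5, chr4:154960673-154960972, plus strand: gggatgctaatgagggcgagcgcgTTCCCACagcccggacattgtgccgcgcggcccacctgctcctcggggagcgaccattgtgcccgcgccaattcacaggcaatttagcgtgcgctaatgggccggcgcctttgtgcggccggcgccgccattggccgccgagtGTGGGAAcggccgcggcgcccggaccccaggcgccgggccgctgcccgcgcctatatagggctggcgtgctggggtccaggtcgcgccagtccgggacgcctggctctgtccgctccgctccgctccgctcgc

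Lfng, chr5:140607091-140607390, plus strand: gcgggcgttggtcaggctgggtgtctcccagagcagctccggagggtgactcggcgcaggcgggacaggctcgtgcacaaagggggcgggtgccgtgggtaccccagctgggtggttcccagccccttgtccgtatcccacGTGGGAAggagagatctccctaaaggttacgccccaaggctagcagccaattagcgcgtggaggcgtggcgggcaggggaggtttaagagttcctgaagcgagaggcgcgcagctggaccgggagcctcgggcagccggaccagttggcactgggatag

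In the Hes5 window the matches began 226 bases before the start site, on the minus strand, and 83 bases before it, on the plus strand. In the Lfng window the match began 109 bases before the start site. Among 34 other Notch pathway genes with a window, 5 held the letters. The same windows were also searched for CACNAG, with N for any base, which is not marked in the sequences. It occurred in 5 of the 8 genes, in 13 of the 34 other pathway genes and in 46.1% of all genes with a window. A match is a description of the letters and not a binding site.

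The 76 sequenced samples made 70 libraries, since 6 libraries had repeat runs that were summed, in 16 groups. NPC groups had 6 libraries each, maturation groups 4, and axon groups 4 except ID-8 uncut of WSB and ID-8 cut of B6 with 3. Library totals, in units of 1000000 counts, were 22.9 to 131 at the NPC stage, 25.1 to 41.7 at maturation and 20.4 to 99.2 at the axon stage. Titles place NPC replicates 1 to 3 in library block GT20-12 and replicates 4 to 6 in GT20-16. Most axon libraries are of GT20-16, 4 WSB axon libraries and all maturation libraries of GT20-18. The labelled cell identity was checked with marker lists. Neuronal genes were present at every stage, with Map2 at a mean of 347 to 882 CPM over the 4 NPC groups and 723 to 905 CPM over those of maturation. The astrocyte gene Gfap rose from at most 0.139 CPM in NPC groups to 680 to 3610 CPM at maturation, and the pluripotency gene Pou5f1 was still at 433 CPM in ID-8 NPC cultures of B6. In such bulk libraries fewer cells of a type and less RNA per cell cannot be told apart.

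Levels are given as counts per 1000000 (CPM) of TMM-scaled library totals, and, where genes are compared, per kilobase of exon. In control NPC cultures of B6 the targets and ligands spread widely. Hes5 stood at 32.7 ± 23.1 CPM per kilobase (SD, n = 6), Dll1 at 31.7 ± 9.73, Dll3 at 18.2 ± 6.35 and Jag1 at 6.84 ± 1.84. The receptors lay close together there, with Notch1 at 14.5 ± 5.33, Notch2 at 16.1 ± 2.37 and Notch3 at 16.2 ± 4.86 CPM per kilobase. At maturation the order was another: Hey1 led the list in control B6 cultures with 12.5 ± 6.22 CPM per kilobase, and Dll3 and Hes5 closed it with 0.245 ± 0.115 and 0.017 ± 0.0219. In uncut control axon cultures of B6, Lfng led with 12.2 ± 2.65 CPM per kilobase and Dll3 was lowest with 0.802 ± 0.213.

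**Figure D1:**
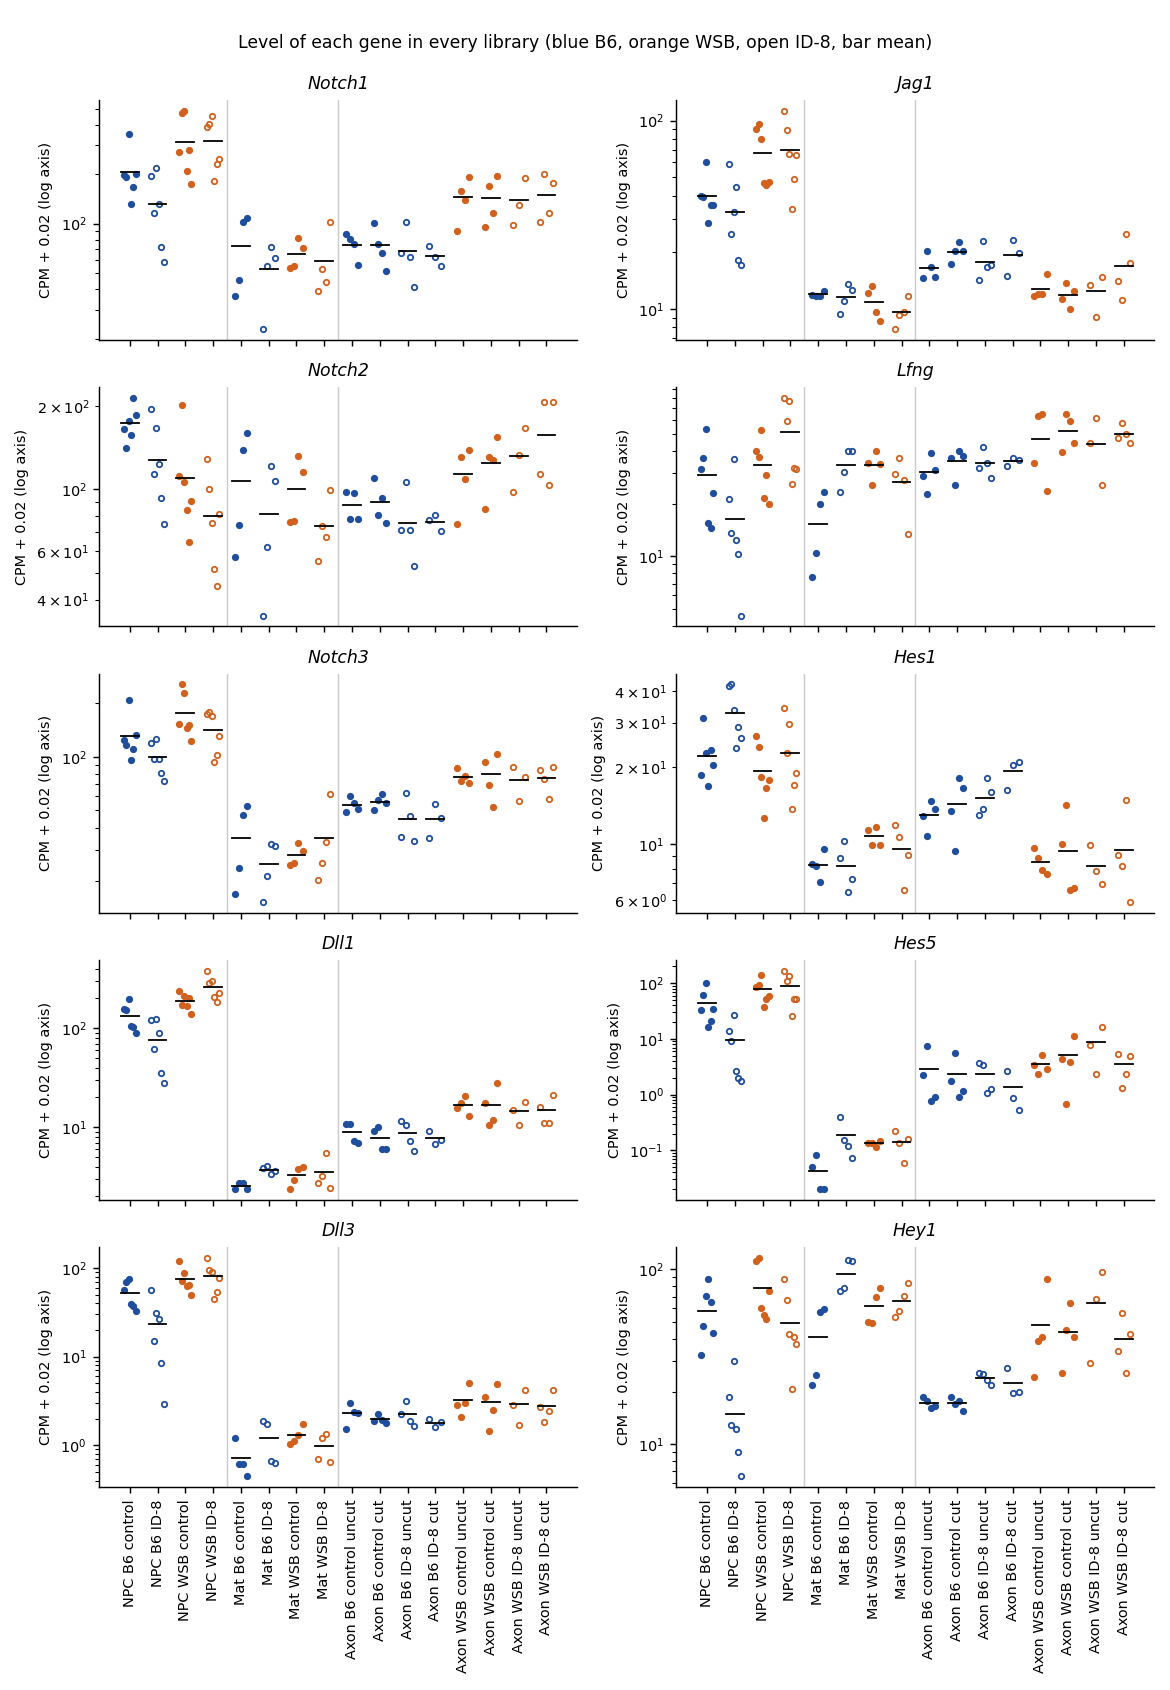
Level of each of the 10 genes in CPM (log axis, with 0.02 added so that values of 0 can be drawn) in every library of the 16 groups; each point is a library, bars are group means. Hes5, Dll1 and Dll3 have their lowest values among maturation libraries, while Hey1 reaches its highest group mean, 94.7 CPM, in ID-8 cultures of B6 at maturation.

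Over the 16 groups the means varied least for Notch2 and most for Hes5, Dll3 and Dll1. The highest group mean was 2.35 times the lowest for Notch2, 5.98 times for Notch1 and 7.02 times for Notch3. It was 104 times for Dll1, 7.21 times for Jag1, 3.39 times for Lfng, 4.01 times for Hes1 and 6.41 times for Hey1. For Dll3 it ran from 0.699 CPM in control maturation cultures of B6 to 81.7 CPM in ID-8 NPC cultures of WSB. For Hes5 it was 3910 times, from 90.5 CPM in ID-8 NPC cultures of WSB to 0.0231 CPM in control maturation cultures of B6, a level of 3 counts in 4 libraries. In the order of the 16 means, the ranges of mean ± SD of neighbouring groups overlapped in all 15 steps for 7 of the genes. They were apart in 2 of 15 steps for Dll1, in 1 for Hes5 and in 1 for Hey1.

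The first question of the design is how the strains differ in untreated progenitors. Between control NPC cultures 5 of the 10 genes differed at an adjusted p under 0.05 (edgeR quasi-likelihood test with Benjamini-Hochberg adjustment over all genes), against 45% of the 17248 genes tested, a share near that of the list. Notch1, Notch3, Jag1 and Hes5 were higher in WSB and Notch2 was lower. The median log2 difference over the 10 genes was 0.50, and over all genes it was 0.00.

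The receptors moved in opposite directions. Notch1 ran from 131 to 352 CPM in B6 (median 195, n = 6) and from 174 to 485 CPM in WSB (median 276), a log2 difference of 0.58 ± 0.21 (SE; adjusted p = 0.0293). Notch3 ran from 95.8 to 207 CPM in B6 (median 121) and from 123 to 255 CPM in WSB (median 152), higher by 0.43 ± 0.14 (adjusted p = 0.0146). Notch2 ran from 142 to 215 CPM in B6 (median 171) and from 64.7 to 202 CPM in WSB (median 98.4), lower by a log2 difference of -0.73 ± 0.23 (adjusted p = 0.0145). For all 3 receptors the libraries of the strains overlapped. For Notch2, 5 of the 6 WSB libraries lay below every B6 library and the remaining one, replicate 2, was at 202 CPM.

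Of the ligands Jag1 passed the test. It ran from 28.5 to 60.2 CPM in B6 (median 37.5) and from 45.4 to 96.4 CPM in WSB (median 63.3), higher by 0.73 ± 0.24 (adjusted p = 0.0162). Dll1 and Dll3 had log2 differences of 0.56 ± 0.23 (adjusted p = 0.0546) and 0.60 ± 0.35 (adjusted p = 0.165). Among the targets Hes5, the main Notch effector gene of neural progenitors, was higher in WSB by 0.92 ± 0.34 (adjusted p = 0.0315), with 16.7 to 100 CPM in B6 (median 33.7) and 36.7 to 140 CPM in WSB (median 72.1). Lfng, Hes1 and Hey1 did not pass, at 0.28 ± 0.22, -0.21 ± 0.15 and 0.35 ± 0.32.

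Within the library blocks fewer genes passed. In GT20-12 alone, with 3 libraries per group, Jag1 did, at 0.93 ± 0.30 (adjusted p = 0.0421), against 24.4% of all genes. In GT20-16 alone Notch2, at -1.20 ± 0.26 (adjusted p = 0.0114), and Hes5, at 1.06 ± 0.32 (adjusted p = 0.0457), did, against 16.3%. The Notch2 difference in GT20-12 was -0.21 ± 0.28 (adjusted p = 0.614). With the replicate number as a block in GT20-12, Notch1 (0.74 ± 0.24, adjusted p = 0.0427) and Jag1 passed, against 30.6% of all genes. With the culture sets named for the GT20-16 libraries as blocks, Jag1 (0.87 ± 0.28, adjusted p = 0.0237) and Notch3 (0.51 ± 0.18, adjusted p = 0.0378) passed, against 34.5%. These blocks were set within each strain, although the set names 10/2 and 10/6 occur in both strains. Strain levels were therefore not compared within GT20-16 there, and its libraries entered through their ID-8 responses. The calls of Notch1 (0.59 ± 0.28, adjusted p = 0.111), Notch2 (-0.46 ± 0.28, adjusted p = 0.212) and Hes5 (0.46 ± 0.43, adjusted p = 0.423) were lost in that fit. Without WSB replicate 2 the Notch1 difference was 0.53 (adjusted p = 0.0621), and Dll1 passed, at 0.65 (adjusted p = 0.037). Pluripotency markers moved with strain as well: all 4 were lower in WSB, their summed level being 285 to 778 CPM in B6 and 20.9 to 43.6 CPM in WSB. Of the neuronal markers 2 of 6 were higher in WSB (977 to 2420 CPM in B6, 2060 to 2910 CPM in WSB), as were 2 of 6 neural progenitor markers, and 3 of 5 endothelial markers were lower (47.6 to 274 and 25.8 to 73.3 CPM). The part of these markers in the strain differences was not tested.

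The second question is how progenitors of each strain differ with and without ID-8. In B6, 8 of the 10 genes passed the test, against 40.4% of all genes tested. The 7 that fell (22% of all genes were called lower) were Notch1, Notch3, Dll1, Dll3, Lfng, Hes5 and Hey1, and Hes1 rose. In WSB none of the 10 passed, against 9.57% of all genes, a count of 1650 genes that was 931 without control WSB replicate 2. The median log2 change over the 10 genes was -0.80 in B6 and 0.03 in WSB, and over all genes -0.04 and 0.00.

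Hes5 and Hey1 changed most. Hes5 in control B6 cultures stood at 33.0, 61.5 and 100 CPM in the 3 libraries of GT20-12 and at 16.7, 21.2 and 34.4 CPM in those of GT20-16. With ID-8 it stood at 13.8, 9.27 and 27.3 CPM in GT20-12 and at 2.59, 1.96 and 1.70 CPM in GT20-16. Within each block every ID-8 library lay below every control library, and the lowest values of all were those of ID-8 in GT20-16. The fitted change was -2.62 ± 0.36 on the log2 scale (adjusted p = 2.06e-05). In GT20-12 alone it was -1.98 ± 0.42 (adjusted p = 0.0168) and in GT20-16 alone -3.56 ± 0.36 (adjusted p = 0.00158).

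Hey1, a target that like Hes5 encodes a repressor of the bHLH class, stood at 32.2, 47.2 and 70.8 CPM in control B6 libraries of GT20-12 and at 87.9, 64.8 and 43.0 CPM in those of GT20-16. With ID-8 the values were 18.5, 12.8 and 29.8 CPM, and 12.1, 8.94 and 6.55 CPM. The 6 ID-8 libraries all lay below the 6 control libraries, with a log2 change of -2.16 ± 0.34 (adjusted p = 6.49e-05). In GT20-12 alone the change was -1.33 ± 0.39 and did not pass (adjusted p = 0.057), and in GT20-16 alone it was -2.87 ± 0.37 (adjusted p = 0.00302).

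Hes1, the third target, went the other way. It ran from 16.9 to 31.2 CPM in control B6 cultures (median 21.6) and from 23.8 to 42.4 CPM with ID-8 (median 31.3), a rise of 0.48 ± 0.15 (adjusted p = 0.0126). The groups overlapped over all 6 libraries and did not overlap within either block. In GT20-12 controls were at 18.6, 31.2 and 22.8 CPM and ID-8 libraries at 41.8, 42.4 and 33.6 CPM. In GT20-16 they were at 16.9, 23.4 and 20.3 CPM and at 23.8, 28.9 and 26.2 CPM. Neither block passed on its own, at 0.66 ± 0.22 (adjusted p = 0.087) and 0.34 ± 0.18 (adjusted p = 0.18).

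The Delta ligands and Lfng fell together. Dll3 ran from 32.8 to 74.9 CPM in control B6 cultures (median 47.9) and from 2.88 to 55.8 CPM with ID-8 (median 20.8), a change of -1.27 ± 0.36 (adjusted p = 0.00758). Dll1 ran from 89.7 to 196 CPM (median 129) and from 27.9 to 125 CPM (median 75.2), a change of -0.87 ± 0.23 (adjusted p = 0.006). Lfng ran from 14.5 to 53.6 CPM (median 27.3) and from 4.58 to 35.9 CPM (median 13.0), a change of -0.90 ± 0.22 (adjusted p = 0.00339). In all 3 genes the groups overlapped, and ID-8 replicate 6 held the lowest value. Jag1 did not pass, at -0.33 ± 0.23 (adjusted p = 0.275).

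Of the receptors Notch1 fell by 0.74 ± 0.21 on the log2 scale (adjusted p = 0.00832) and Notch3 by 0.45 ± 0.14 (adjusted p = 0.013). Notch2 was at -0.56 ± 0.23 (adjusted p = 0.0556). Its change was -0.06 ± 0.28 in GT20-12 and -0.97 ± 0.25 in GT20-16, the second of which passed (adjusted p = 0.0236). Over the 10 genes 1 passed in GT20-12 alone, namely Hes5, against 7.98% of all genes, a share near that of the list. In GT20-16 alone 5 passed, namely Notch1, Notch2, Lfng, Hes5 and Hey1, against 22.7%. With the replicate number as a block in GT20-12, 4 passed, namely Dll1, Dll3, Lfng and Hes5, against 11.6%.

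**Figure D2:**
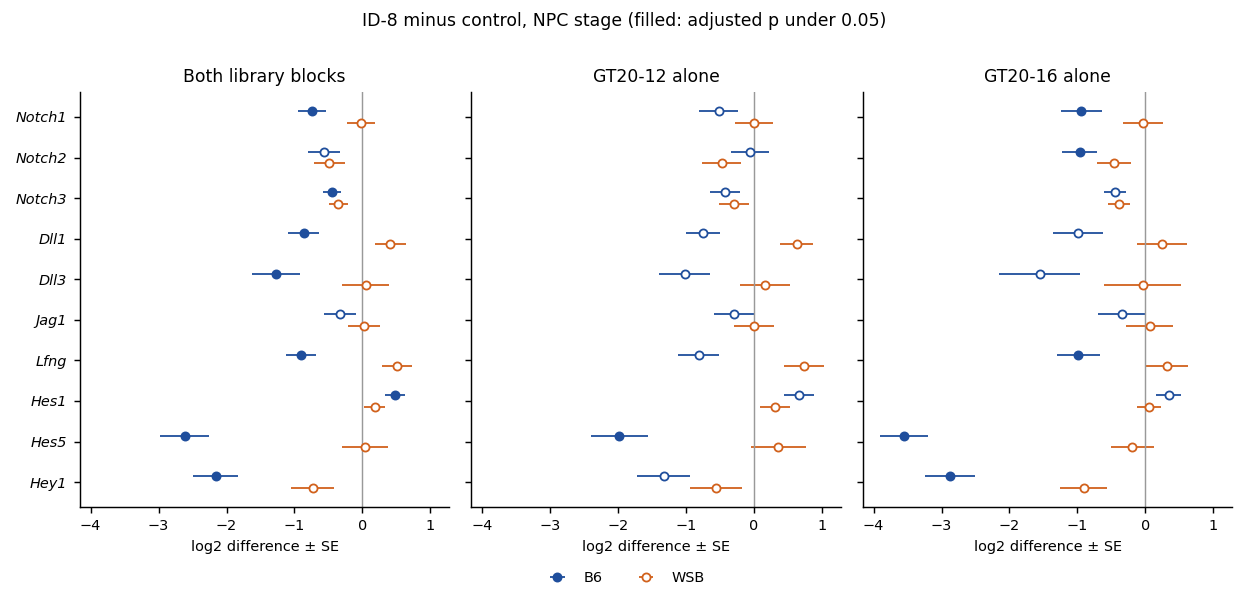
Log2 difference of ID-8 minus control with its standard error for the 10 genes at the NPC stage, in B6 (blue) and WSB (orange), with both library blocks in 1 fit and in each block alone; filled points passed an adjusted p of 0.05. Hes5 and Hey1 of B6 stand farthest from 0 in each panel, and no WSB point is filled.

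In WSB the same genes did not pass. Hes5 ran from 36.7 to 140 CPM in controls (median 72.1) and from 26.1 to 164 CPM with ID-8 (median 82.0), a difference of 0.04 ± 0.34 (adjusted p = 0.964). Hey1 ran from 51.8 to 116.2 CPM (median 67.6) and from 20.6 to 88.7 CPM (median 41.6), a difference of -0.73 ± 0.32 (adjusted p = 0.161). Dll1 was at 0.41 ± 0.23, Lfng at 0.51 ± 0.22 and Notch1 at -0.02 ± 0.21. None of the 10 passed in either block alone, where few of all genes tested passed as well (counts are given at the end).

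The difference between the responses of the strains was tested directly. It passed for Hes5 (2.66 ± 0.49 higher in WSB, adjusted p = 0.00626), Lfng (1.41 ± 0.32, adjusted p = 0.0181) and Dll1 (1.28 ± 0.33, adjusted p = 0.0363), 3 of 10 genes against 3.19% of all genes. Hey1 (1.43 ± 0.45, adjusted p = 0.0798) and Dll3 (1.32 ± 0.50, adjusted p = 0.13) missed the threshold. In the single blocks none of the 3 passed, with Hes5 at 2.34 ± 0.57 (adjusted p = 0.274) and 3.36 ± 0.46 (adjusted p = 0.138), Lfng at 1.55 ± 0.42 and 1.30 ± 0.45, and Dll1 at 1.37 ± 0.35 and 1.24 ± 0.51. With the replicate block in GT20-12 none passed either, and the adjusted p of Hes5 was 0.121. Over all genes tested, none passed in either block alone and almost none with the replicate block. These fits therefore do not set the 10 genes apart from other genes. With the culture sets of GT20-16 as blocks 4 passed, against 10.1% of all genes, namely Hes5 (2.76 ± 0.48, adjusted p = 0.0048), Dll1 (1.41 ± 0.29, adjusted p = 0.00905), Lfng (1.47 ± 0.34, adjusted p = 0.0153) and Dll3 (1.56 ± 0.47, adjusted p = 0.0439). DESeq2 called Hey1 (1.42, adjusted p = 0.0286) beside Hes5, Lfng and Dll1. The Dll1 difference missed the threshold without control B6 replicate 3 (1.23, adjusted p = 0.0659) and without control WSB replicate 2 (1.20, adjusted p = 0.0647).

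With ID-8 in both strains, all 10 genes differed between WSB and B6, against 66.7% of all genes. The 8 that were higher in WSB (32.7% of all genes were called higher) were Hes5 by 3.58 ± 0.38 (adjusted p = 9.55e-08), Dll3 by 1.92 ± 0.36, Dll1 by 1.84 ± 0.24, Hey1 by 1.79 ± 0.33, Lfng by 1.69 ± 0.23, Notch1 by 1.30 ± 0.21, Jag1 by 1.07 ± 0.24 and Notch3 by 0.52 ± 0.14. Notch2 (-0.65 ± 0.23) and Hes1 (-0.51 ± 0.15) were lower in WSB. Dll1 ran from 183 to 376 CPM in WSB and from 27.9 to 125 CPM in B6, and the groups of the others overlapped. The share of all genes whose groups lay apart is not given here. In GT20-12 alone Notch2 and Hes1 missed the threshold, and in GT20-16 alone Notch3 did. With the culture sets of GT20-16 as blocks, which do not compare strain levels within GT20-16, Notch2 did (-0.42 ± 0.26, adjusted p = 0.174). Markers of other cell types differed in the same comparison. All 6 neuronal markers were higher in WSB, with a summed level of 2120 to 3310 CPM against 173 to 1450 CPM in B6, and 3 of 6 neural progenitor markers were higher. Lower in WSB were 3 of 4 pluripotency markers (53.3 to 302 against 672 to 1700 CPM), 3 of 4 of the oligodendrocyte lineage (5.91 to 22.1 against 50.2 to 196 CPM), 3 of 4 of endoderm (10.6 to 49.6 against 43.7 to 289 CPM), 4 of 5 endothelial ones (7.83 to 20.3 against 45.1 to 163 CPM) and all 5 mural and smooth muscle ones (34.8 to 524 against 168 to 1460 CPM). Their part in the differences of the Notch genes was not tested.

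Other genes of the pathway were tested in the same fits. Of 44 tested, 18 fell and 5 rose with ID-8 in B6, where 40.4% of all genes were called and 22% called lower. In WSB 4 fell and 2 rose, against 9.57% of all genes, a like share. Their median log2 changes were -0.23 and -0.06. The 4 with the smallest p in B6 were the targets Hes2, which fell from 2.94 ± 1.57 to 0.0667 ± 0.0652 CPM (SD, n = 6), and Heyl, which fell from 3.70 ± 1.19 to 1.01 ± 0.238 CPM, the ligand Jag2, which fell from 31.9 ± 3.60 to 16.6 ± 2.81 CPM, and Neurl1b, a ubiquitin ligase of Notch ligands, which fell from 8.24 ± 1.78 to 4.35 ± 0.931 CPM. In WSB the 4 were Hes3, which rose, Notch4, which rose from 3.37 ± 0.873 to 5.98 ± 1.33 CPM, and Neurl1b and Hes2, which fell. The difference of the responses passed for Dtx4 (1.36 ± 0.36) and Hey2 (-1.46 ± 0.38).

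Between the strains, 12 of 44 other pathway genes were higher and 6 lower in WSB controls, a share near the 45% of all genes. With ID-8, 23 were higher and 6 lower, a total again near the 66.7% of all genes. Of all genes 32.7% were called higher there, a smaller share than that of these pathway genes. Rbpj, which encodes the DNA-binding partner of the Notch intracellular domain, had the smallest p in controls and with ID-8. It stood at 307 ± 97.9 CPM in B6 and 135 ± 14.6 CPM in WSB in controls, and at 465.8 ± 146 and 134 ± 12.4 CPM with ID-8. Of its 50-base windows 10.3% occurred also in another gene, above all in the pseudogene Rbpj-ps3, so its count is less certain than those of the 10 genes. The others of lowest p in controls were Hey2 (1.72 ± 0.28), Psen2 (-0.86 ± 0.19) and Adam10 (0.29 ± 0.065), and with ID-8 Jag2 (1.17 ± 0.14), Adam10 (0.49 ± 0.065) and Nrarp (1.86 ± 0.28). Nrarp, a target that feeds back on the receptor, stood at 41.6 ± 22.3 CPM in ID-8 cultures of B6 and at 149 ± 55.2 CPM in those of WSB.

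Markers of other cell types moved with ID-8 in B6. Neuronal markers fell in 4 of 6 genes, with a summed level of 977 to 2420 CPM in controls and 173 to 1450 CPM with ID-8. Proneural genes fell in 1 of 5, with 126 to 235 and 25.4 to 323 CPM. Endoderm markers rose in 3 of 4 genes, from 22.3 to 36.8 CPM in controls to 43.7 to 289 CPM with ID-8. Markers of the oligodendrocyte lineage rose in 3 of 4 (12.3 to 38.1 and 50.2 to 196 CPM), and of 3 astrocyte markers tested 2 rose and 1 fell (30.8 to 43.4 and 109 to 247 CPM), and for both lists the sums of the groups did not overlap. Pluripotency markers rose in 3 of 4 (285 to 778 and 672 to 1700 CPM), mural and smooth muscle markers in 3 of 5 (57.0 to 180 and 168 to 1460 CPM) and fibroblast markers in 4 of 5 (74.2 to 179 and 109 to 493 CPM). Of the neural progenitor markers 2 of 6 fell and none rose. Markers of presomitic mesoderm, where Dll1, Dll3, Lfng and the Hes genes are also active, stayed at 0.719 to 1.54 CPM in sum over both groups, and Msgn1 was at 0 in all control libraries. In WSB all 4 pluripotency markers rose (20.9 to 43.6 and 53.3 to 302 CPM), and no neuronal marker passed. The part of these markers in the changes of the Notch genes was not tested.

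**Figure D3:**
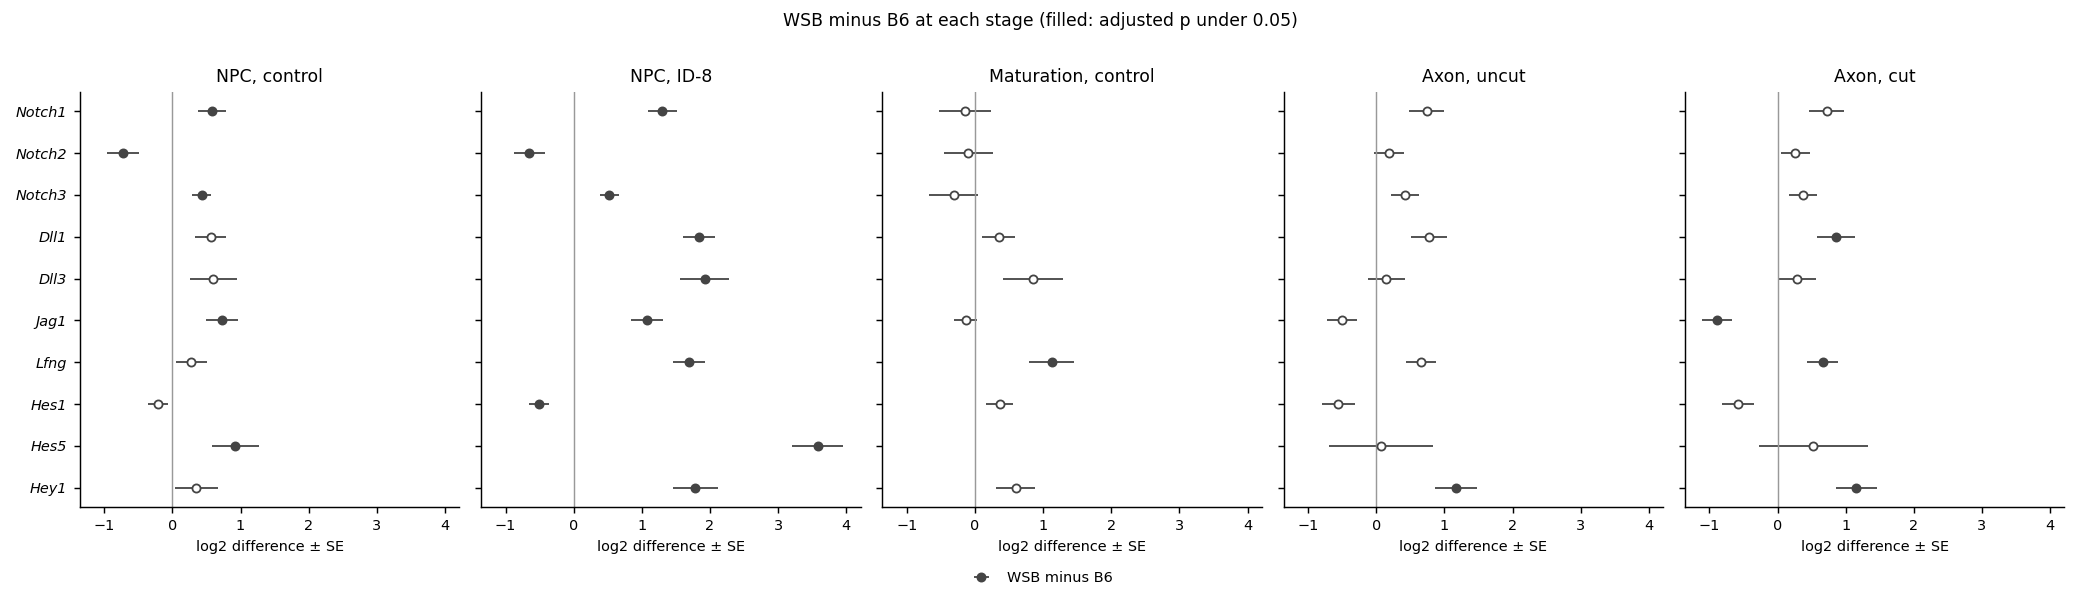
Log2 difference of WSB minus B6 with its standard error for the 10 genes, in control and ID-8 cultures of the NPC stage, in control cultures of maturation and in control uncut and cut cultures of the axon stage; filled points passed an adjusted p of 0.05. Hes5 at maturation was too low to be tested and has no point.

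At maturation 9 of the 10 genes could be tested, and Hes5 did not pass the filter on low counts, with 0 to 0.38 CPM over the 16 libraries. ID-8 raised Hey1 and Lfng in B6, 2 of 9 genes tested against 17.1% of all genes, shares that are near each other. None of the 9 passed in WSB, against 5.89%. WSB controls exceeded B6 controls in Lfng, 1 of 9 against 14.8% of all genes, and none of the 9 passed between the strains with ID-8, against 17.3%. The difference of the responses passed for none of the 9, against 0.46% of all genes.

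The libraries came from experiments named neuron (replicates 1 and 2) and exp1012 (replicates 3 and 4), and several of the genes differed between them. Hey1 in control B6 cultures stood at 21.7 and 24.9 CPM in neuron and at 57.2 and 59.5 CPM in exp1012. With ID-8 it stood at 75.0 and 78.3 CPM and at 113 and 112 CPM. All 4 ID-8 libraries lay above all 4 controls, and each experiment showed the rise. The change was 1.20 ± 0.29 (adjusted p = 0.0103), and with the experiments as blocks 1.29 ± 0.15 (adjusted p = 1.67e-05). Within neuron it was 1.70 ± 0.12 and within exp1012 0.94 ± 0.11.

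In WSB Hey1 stood at 49.9, 49.2, 69.3 and 78.4 CPM in controls and at 53.5, 57.9, 70.7 and 83.2 CPM with ID-8, in the same order of experiments. The values of each experiment were close to one another and the difference was 0.10 ± 0.29 (adjusted p = 0.896). The difference of the responses was -1.11 ± 0.41 (adjusted p = 0.375). With the experiments as blocks it was -1.17 ± 0.20 and passed (adjusted p = 0.0061), as it did within neuron (-1.55 ± 0.16, adjusted p = 0.00319) and within exp1012 (-0.86 ± 0.15, adjusted p = 0.0241), with 2 libraries per group. The block also turned the strain differences of Hey1 into calls, 0.68 ± 0.15 in controls (adjusted p = 0.00312) and -0.49 ± 0.14 with ID-8 (adjusted p = 0.0188), so that WSB was above B6 in controls and below it with ID-8. In controls this difference was 1.09 ± 0.12 within neuron (adjusted p = 0.000332) and 0.32 ± 0.11 within exp1012, where it missed the threshold (adjusted p = 0.0517). With ID-8 it passed in both, at -0.47 ± 0.11 and -0.54 ± 0.11 (adjusted p = 0.0138 and 0.00645).

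Lfng stood at 7.63, 10.4, 20.0 and 23.3 CPM in control B6 cultures and at 23.4, 30.3, 40.2 and 39.8 CPM with ID-8. The groups did not overlap, but the highest control, of exp1012, was close to the lowest ID-8 library, of neuron. The change was 1.11 ± 0.33 (adjusted p = 0.0305), and 1.15 ± 0.31 with the experiments as blocks (adjusted p = 0.0121). Within neuron it was 1.55 ± 0.21 and within exp1012 0.87 ± 0.28 (adjusted p = 0.000998 and 0.0443). It missed the threshold without either neuron control library or either exp1012 library with ID-8 (0.90 to 1.02, adjusted p = 0.0664 to 0.0895). Lfng in WSB stood at 34.0, 25.5, 40.1 and 33.6 CPM in controls and at 29.7, 36.4, 27.4 and 13.4 CPM with ID-8, a difference of -0.32 ± 0.33 (adjusted p = 0.644). The difference of the responses was -1.42 ± 0.29 within neuron (adjusted p = 0.0409) and -1.72 ± 0.39 within exp1012 (adjusted p = 0.0537), and -1.43 ± 0.46 over both (adjusted p = 0.266).

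The strain difference of Lfng in controls was 1.12 ± 0.33 (adjusted p = 0.0314), and all 4 WSB libraries lay above all 4 of B6. It was 1.72 ± 0.21 within neuron and 0.75 ± 0.28 within exp1012, where it missed the threshold (adjusted p = 0.0717). It also missed it without B6 replicate 1 (0.91, adjusted p = 0.0782), B6 replicate 2 (0.98, adjusted p = 0.0959), WSB replicate 1 (1.11, adjusted p = 0.0671), WSB replicate 3 (1.02, adjusted p = 0.0807) or WSB replicate 4 (1.13, adjusted p = 0.0585). Markers moved with strain here too. In controls 4 of 5 fibroblast markers were higher in WSB, with a summed level of 441 to 821 CPM in B6 and 1470 to 3890 CPM in WSB, which did not overlap. Of the astrocyte markers 2 of 5 were higher (443 to 3220 and 2800 to 3780 CPM), as were 1 of 6 neural progenitor markers, 1 of 3 proneural genes tested and 1 of 3 genes of the oligodendrocyte lineage tested. With ID-8, 4 of 5 fibroblast, 3 of 5 mural and 2 of 4 endothelial markers tested were higher in WSB. Their part in the strain differences of Lfng and Hey1 was not tested.

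**Figure D4:**
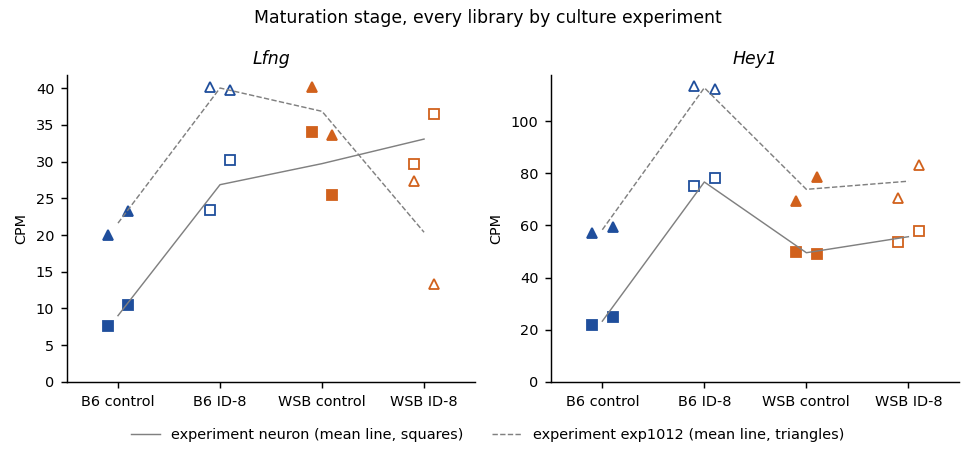
Lfng and Hey1 in CPM in every maturation library, by strain and treatment (filled control, open ID-8), with squares for experiment neuron, triangles for exp1012 and lines through the means of each experiment. Hey1 rises with ID-8 in B6 in both experiments, from 21.7 and 24.9 to 75.0 and 78.3 CPM in neuron.

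In control B6 cultures of maturation all 3 receptors were lower in neuron than in exp1012. Notch1 stood at 36.1 and 45.8 CPM in neuron and at 102.1 and 107.5 CPM in exp1012, and Notch2 at 57.0 and 74.3, and 139 and 160 CPM. Notch3 stood at 16.9 and 23.8, and 47.0 and 53.0 CPM. No receptor passed at maturation with both experiments in the fit, the largest log2 difference between strains or treatments being -0.50 ± 0.36, of Notch3 with ID-8 in B6. Of the ligands Dll1 lay at 2.35 to 2.72 CPM in control B6 libraries and at 3.38 to 4.06 CPM with ID-8, groups that did not overlap, with a difference of 0.53 ± 0.24 (adjusted p = 0.15).

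Of 42 other pathway genes tested at maturation, ID-8 raised 2 and lowered 2 in B6, and raised 1 and lowered 1 in WSB, shares near or below those of all genes (17.1% and 5.89%). Those raised in B6 were the targets Nrarp (0.336 ± 0.0957 to 1.08 ± 0.458 CPM; SD, n = 4) and Hes7, and those lowered were Kat2b, a histone acetyltransferase with 7.28% of its windows shared with a pseudogene, and Ncstn, a subunit of gamma-secretase. In WSB Dtx4 rose (104 ± 2.87 to 173 ± 14.3 CPM) and Neurl1a, of whose windows 9.31% are shared, fell. Between the strains 2 were higher and 3 lower in WSB controls, and 1 was higher and 4 lower with ID-8, shares near or below the 14.8% and 17.3% of all genes. In controls these included Rbpj again (69.0 ± 10.3 CPM in B6, 31.4 ± 2.88 CPM in WSB), the non-canonical ligand Dlk1 (-1.38 ± 0.40), Hes6 (0.84 ± 0.21) and Heyl (1.92 ± 0.59). With ID-8 they included Hey2 (1.31 ± 0.24), Dlk1 (-1.77 ± 0.41), Hes7 (-1.74 ± 0.47) and Mib2 (-0.56 ± 0.16). None passed the test of the difference of the responses.

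Markers of vascular wall cells and of neural progenitors moved with ID-8 in B6 at maturation, and Hey1 and Notch3 are known from both. Of the neural progenitor markers 2 of 6 rose and 1 fell, with a summed level of 625 to 1050 CPM in controls and 1160 to 1780 CPM with ID-8, which did not overlap. Of 3 proneural genes tested 1 rose (1.22 to 3.91 and 3.53 to 6.71 CPM). The summed level of 5 mural and smooth muscle markers was 2060 to 4380 CPM in controls and 233 to 476 CPM with ID-8, with 4 of 5 called lower. That of 5 endothelial markers was 16.5 to 28.6 and 2.60 to 7.80 CPM, with 2 of 4 tested called lower. The oligodendrocyte lineage rose in 2 of 3 genes tested, from 18.4 to 63.2 CPM to 126 to 151 CPM. Between these B6 groups Hey1 was higher where mural and endothelial markers were lower and the neural progenitor sum was higher. In WSB the mean mural sum was 2570 CPM in controls and 1670 CPM with ID-8. The endothelial sum was 34.7 and 21.1 CPM and the neural progenitor sum 1070 and 1540 CPM. All these ranges overlapped, and mean Hey1 was 61.7 and 66.3 CPM. The part of these markers in the change of Hey1 and Lfng was not tested.

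At the axon stage calls were made between the strains. Between uncut controls 1 of 10 genes passed, Hey1, against 13.2% of all genes, a like share. Between cut controls 4 of 10 passed, Dll1, Lfng and Hey1 higher and Jag1 lower in WSB, against 16.2%. Hey1 stood at 18.5, 17.7, 16.0 and 16.6 CPM in uncut B6 cultures and at 24.1, 39.1, 41.1 and 88.6 CPM in uncut WSB cultures. In cut cultures it stood at 18.6, 16.9, 17.6 and 15.5 CPM in B6 and at 25.5, 45.0, 64.7 and 41.2 CPM in WSB. Every WSB library lay above every B6 library, and the differences were 1.17 ± 0.31 (adjusted p = 0.0134) and 1.16 ± 0.30 (adjusted p = 0.0103). In both WSB groups the last value is of library block GT20-18, which holds no B6 axon library. The block term of the fit takes up the level of such libraries. The fitted strain differences of the axon stage therefore compare the strain levels of the GT20-16 libraries. Without WSB replicate 3 the cut difference was 0.82 (adjusted p = 0.0774).

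Jag1 in cut cultures stood at 17.3, 20.4, 22.8 and 20.4 CPM in B6 and at 11.2, 13.8, 10.1 and 12.5 CPM in WSB, with no overlap. The difference was -0.89 ± 0.22 (adjusted p = 0.00705), and in uncut cultures -0.50 ± 0.21 (adjusted p = 0.125). Its sign was opposite to that in NPC controls, where Jag1 was higher in WSB.

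Dll1 in cut cultures stood at 9.09, 10.1, 5.98 and 6.03 CPM in B6 and at 17.5, 10.4, 11.9 and 27.7 CPM in WSB. The difference was 0.86 ± 0.28 (adjusted p = 0.0373) in cut and 0.77 ± 0.27 (adjusted p = 0.0593) in uncut cultures. Without the 4 libraries of GT20-18 it passed in uncut (0.97, adjusted p = 0.0185) and not in cut cultures (0.71, adjusted p = 0.0679). Leaving out B6 replicate 3 or 4 or WSB replicate 1 or 4 ended the call in cut cultures (0.69 to 0.82, adjusted p = 0.077 to 0.0985).

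Lfng differed by 0.66 ± 0.23 in cut cultures (adjusted p = 0.0463) and by 0.66 ± 0.22 in uncut ones (adjusted p = 0.0519). In cut cultures it stood at 36.7, 25.6, 39.9 and 37.6 CPM in B6 and at 39.6, 64.7, 59.2 and 44.2 CPM in WSB, with 1 B6 library just above the lowest of WSB. The call was lost in 7 of the 8 fits that left out 1 library of these groups, with WSB replicate 1 as the exception (0.54 to 0.77, adjusted p = 0.0504 to 0.127), and without the GT20-18 libraries (0.58, adjusted p = 0.0862). Notch1 was at 0.74 ± 0.26 and 0.72 ± 0.26 (adjusted p = 0.0622 and 0.0606). It stood at 56.1 to 86.2 CPM in uncut B6 and at 90.5 to 191 CPM in uncut WSB cultures, which did not overlap.

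Markers of several cell types moved with strain at the axon stage. The endothelial sum was 22.9 to 157 CPM in uncut B6 controls and 4.96 to 20.6 CPM in WSB (4 of 4 tested lower), and the astrocyte sum was 1270 to 2250 and 1160 to 11900 CPM (1 of 5 higher). In cut controls the neural progenitor sum was 673 to 1050 CPM in B6 and 1410 to 1510 CPM in WSB, with 1 of 6 higher. Their part in the strain differences was not tested. Of 44 other pathway genes 2 were higher and 3 lower in uncut WSB controls, and 5 higher and 4 lower in cut ones, shares near the 13.2% and 16.2% of all genes. Rbpj was again lower in WSB, at 42.8 ± 3.73 against 71.1 ± 6.88 CPM in uncut and 37.8 ± 4.76 against 71.3 ± 2.35 CPM in cut cultures (SD, n = 4). Ncstn and Maml1, which encodes a Mastermind coactivator, were lower in both, Hes6 was higher in uncut and Maml3, another Mastermind coactivator, was lower in cut cultures.

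None of the 10 genes passed the test for axotomy or ID-8 at the axon stage. This held in the 4 comparisons of cut with uncut cultures, the 4 of ID-8 with control, and the 2 differences between strains, where no other gene passed either (0%, edgeR). At an unadjusted p under 0.05 these comparisons held 72 to 1380 genes, and DESeq2 called 1 to 97. With the culture sets as blocks, which pair the B6 libraries, ID-8 called 221 and 275 genes in uncut and cut B6 cultures and 563 and 357 in those of WSB, and axotomy called 0 to 1. None of the 10 was among them, and Hey1 in uncut B6 cultures had an adjusted p of 0.381. Leaving out 1 WSB library, ID-8 cut replicate 3, with these blocks raised the counts for ID-8 in uncut cultures to 818 in B6 and 2028 in WSB, again with none of the 10. For the cut controls the log2 changes of the 10 genes ran from -0.27 to 0.28 in B6 and from -0.11 to 0.20 in WSB, with standard errors of 0.20 to 0.78. Among the changes with axotomy or ID-8 the widest was of Hes5, -1.06 ± 0.83 in cut against uncut ID-8 cultures of WSB, which had 4 and 3 libraries. Hey1 was slightly higher with ID-8 in uncut B6 cultures, with 25.5, 25.3, 23.3 and 21.8 CPM against 18.5, 17.7, 16.0 and 16.6 CPM. These groups did not overlap, and the difference of 0.48 ± 0.33 did not pass (adjusted p = 1).

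The stages were compared within library block GT20-16, the only block that holds control libraries of both the NPC and the axon stage. In B6 all 10 genes differed, against 63.6% of all genes, 9 of them lower at the axon stage (33.3% of all genes were called lower). In WSB 9 of 10 differed, against 58.8%, 8 of them lower (29.7% of all genes). Lfng was the gene that was higher at the axon stage in both strains.

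The Delta ligands and Hes5 fell most in both strains. Dll3 stood at 38.8, 37.3 and 32.8 CPM in NPC cultures of B6 and at 1.51, 3.00, 2.34 and 2.30 CPM in uncut axon cultures, a change of -4.00 ± 0.23 (adjusted p = 1.53e-07). Dll1 stood at 105.1, 103 and 89.7 CPM and at 10.7, 10.7, 7.30 and 6.99 CPM, a change of -3.47 ± 0.19. In WSB the changes were -4.55 ± 0.26 for Dll3 and -3.31 ± 0.22 for Dll1. In both strains the stages were far apart for both ligands.

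Of the targets Hes5 fell by 3.09 ± 0.64 on the log2 scale in B6 (adjusted p = 0.00115) and by 3.83 ± 0.73 in WSB (adjusted p = 0.00076). In B6 axon cultures it varied, at 2.25, 7.43, 0.763 and 0.870 CPM. Hey1 fell by 1.93 ± 0.25 in B6 and by 0.89 ± 0.27 in WSB, and Hes1 by 0.63 ± 0.17 and 0.91 ± 0.19. The WSB change of Hey1 missed the threshold without NPC replicate 6 (-0.70, adjusted p = 0.0575).

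Lfng stood at 15.6, 14.5 and 23.0 CPM in NPC cultures of B6 and at 28.9, 22.8, 38.8 and 31.3 CPM in axon cultures, with a slight overlap, a rise of 0.79 ± 0.24 (adjusted p = 0.0128). Without NPC replicate 5 it was 0.69 (adjusted p = 0.0575). In WSB it stood at 21.6, 29.3 and 19.8 CPM and at 34.2, 63.1 and 65.4 CPM, with no overlap, a rise of 1.12 ± 0.26 (adjusted p = 0.00257).

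The strains differed in the stage change of a receptor and a ligand, 2 of 10 genes against 3.87% of all genes. Notch2 fell in B6, from 157, 215 and 186 CPM to 97.8, 78.2, 97.1 and 78.04 CPM (-1.08 ± 0.19, adjusted p = 0.000299). In WSB it stood at 84.3, 64.7 and 90.7 CPM and at 75.1, 131 and 109 CPM (0.32 ± 0.20, adjusted p = 0.194), and without axon replicate 1 it was higher at the axon stage (0.48, adjusted p = 0.0463). The difference of the changes was 1.40 ± 0.28 (adjusted p = 0.0196). Jag1 fell from 28.5, 35.7 and 35.8 CPM to 14.5, 20.4, 16.6 and 14.8 CPM in B6, and from 46.7, 45.4 and 47.1 CPM to 11.7, 11.9 and 11.9 CPM in WSB. The difference of these changes was -1.04 ± 0.20 (adjusted p = 0.0159).

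With so few libraries these differences lay near the threshold. That of Notch2 missed it without WSB axon replicate 2 or 3, B6 NPC replicate 5, or WSB NPC replicate 4 or 5 (1.22 to 1.43, adjusted p = 0.0503 to 0.0579). That of Jag1 missed it without WSB axon replicate 3 or WSB NPC replicate 4 (-1.03 and -1.04, adjusted p = 0.0506 and 0.0525). The other receptors fell in both strains, Notch1 by 1.14 ± 0.22 in B6 and 0.85 ± 0.23 in WSB, and Notch3 by 1.06 ± 0.13 and 0.89 ± 0.14.

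**Figure D5:**
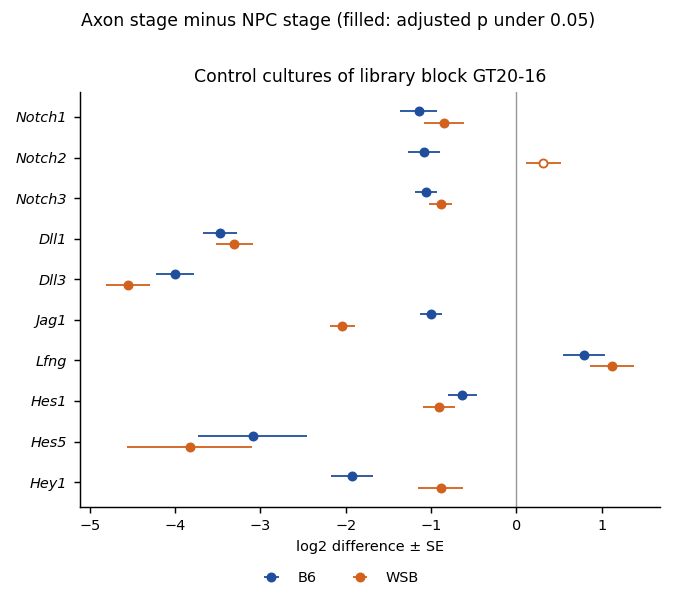
Log2 difference of uncut axon minus NPC control cultures with its standard error for the 10 genes in B6 (blue) and WSB (orange), libraries of block GT20-16; filled points passed an adjusted p of 0.05. Dll1, Dll3 and Hes5 stand farthest to the left, Lfng is to the right of 0 in both strains, and Notch2 falls in B6 and not in WSB.

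Of 45 other pathway genes 19 fell and 11 rose in B6 from the NPC to the axon stage, and 20 fell and 12 rose in WSB, where 63.6% and 58.8% of all genes were called. Nrarp fell by 3.23 ± 0.31 on the log2 scale in B6 and by 3.46 ± 0.34 in WSB, Maml1 by 1.34 ± 0.10 and 1.99 ± 0.11, and Rbpj by 2.34 ± 0.16 and 1.74 ± 0.18. Mfng, another fringe enzyme, fell by 4.38 ± 0.38 in B6, opposite to Lfng, and Maml3 fell by 1.64 ± 0.14 in WSB. Maml1 was the gene of the list whose change differed between the strains (-0.65 ± 0.15, adjusted p = 0.0368). Proneural markers fell in 4 of 5 genes in each strain, neuronal markers rose in 4 of 6 genes in B6 and 3 of 6 in WSB, and all 5 astrocyte markers rose in both. Their part in the changes was not tested.

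Comparisons with maturation also cross library blocks. The titles place the maturation libraries in GT20-18 with 4 WSB axon libraries, but the batch column of the deposited table gives those axon libraries batch 5 and all maturation libraries batch 6, which no other stage shares. By that column maturation and batch cannot be told apart. An additive term for the blocks of the titles links maturation to the other stages through 1 library, control uncut WSB axon replicate 4, and its values are given with that limit. From the NPC stage to maturation 9 of 10 genes were lower in B6 (71% of all genes were called and 35% called lower), all but Hey1. In WSB 7 of 10 were lower (72.3% called, 34.5% lower), all but Notch2, Lfng and Hey1. Dll1 went from 134 ± 41.1 to 2.53 ± 0.196 CPM in B6 and from 188 ± 34.8 to 3.24 ± 0.738 CPM in WSB (SD, n = 6 and 4). Dll3 went from 51.8 ± 18.1 to 0.699 ± 0.327 CPM and from 75.9 ± 25.3 to 1.28 ± 0.310 CPM.

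Hes5 was near 0 at maturation. Control B6 libraries held 3 Hes5 counts in all, of which 2 libraries held none, and control WSB libraries held 13. Against NPC controls the pooled level was 2200 times lower in B6 (95% exact interval 752 to 10700) and 773 times lower in WSB (452 to 1450), intervals that cover counting error only. Hey1 did not share this fall, at 57.6 ± 20.5 and 40.8 ± 20.3 CPM in B6 (-0.52 ± 0.33, adjusted p = 0.159) and 78.3 ± 28.8 and 61.7 ± 14.5 CPM in WSB (-0.37 ± 0.33, adjusted p = 0.318). The B6 calls of Notch2 and Lfng were lost without either neuron library (-0.51 and -0.58, and -0.74 and -0.81), and that of Lfng also without NPC replicate 3 (-0.69, adjusted p = 0.0784). With the additive term for the blocks of the titles, Hey1 was lower at maturation in both strains (-1.83 ± 0.59 and -1.65 ± 0.60). Lfng changed sign with that term, from -0.95 ± 0.36 to 0.86 ± 0.54 in B6 and from -0.03 ± 0.35 to 1.74 ± 0.56 in WSB (adjusted p = 0.188 and 0.0111 with the term). The B6 call of Notch2 (-0.998 ± 0.53, adjusted p = 0.118) and the WSB call of Hes1 (-0.45 ± 0.33, adjusted p = 0.26) were lost with it.

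Of 45 other pathway genes 24 were lower and 14 higher at maturation in B6, and 24 lower and 11 higher in WSB, against 71% and 72.3% of all genes called. Hes6 (-2.93 ± 0.17 in B6), Nrarp (-7.77 ± 0.46), Maml1 (-2.29 ± 0.14) and Rbpj (-2.17 ± 0.17) had the smallest p in both strains. All 5 proneural and all 4 pluripotency markers were lower and all 5 astrocyte and all 5 fibroblast markers higher at maturation in both strains, and their part in the changes was not tested.

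Against maturation, axon cultures of both strains held more Notch3, Dll1, Dll3 and Hes5. In B6 7 of 10 genes differed (44.4% of all genes), Notch3, Dll1, Dll3, Lfng, Hes1 and Hes5 higher and Hey1 lower at the axon stage. In WSB 5 of 10 differed (45.2%, a like share), Notch1, Notch3, Dll1, Dll3 and Hes5, all higher. Dll1 was higher by 1.84 ± 0.23 in B6 and 2.32 ± 0.23 in WSB. Hes5 stood at 2.83 ± 3.14 CPM in axon and 0.0231 ± 0.0298 CPM in maturation cultures of B6, and at 3.45 ± 1.20 and 0.113 ± 0.0147 CPM in those of WSB. Hey1 stood at 17.2 ± 1.13 CPM in axon and 40.8 ± 20.3 CPM in maturation cultures of B6 (-1.21 ± 0.37, adjusted p = 0.00882). The Notch3 call in B6 (0.65 ± 0.27, adjusted p = 0.0498) was lost without any of the 4 axon libraries or either neuron library of maturation (adjusted p up to 0.193). The Lfng call (1.02 ± 0.39, adjusted p = 0.0339) was lost without axon replicate 1, 3 or 4 or either neuron library (adjusted p up to 0.119), and the Hey1 call without maturation replicate 4 (-0.93, adjusted p = 0.0526). In WSB, Hey1 passed without axon replicate 4 (-0.87, adjusted p = 0.0471). With the additive term, in B6, Lfng (-0.16 ± 0.53, adjusted p = 0.863) and Hey1 (0.15 ± 0.62, adjusted p = 0.895) changed sign. The calls of Notch3 (0.49 ± 0.46, adjusted p = 0.457) and Hes1 (0.47 ± 0.33, adjusted p = 0.298) were lost with it, and Jag1 passed (0.88 ± 0.30, adjusted p = 0.0324). Of the 45 other pathway genes 16 were higher and 4 lower in B6, a share like the 44.4% of all genes, and 20 were higher and 5 lower in WSB, against 45.2%. Neuronal markers were higher at the axon stage in 5 of 6 genes in B6 and 4 of 6 in WSB and mural ones lower in 4 of 5 in each, and their part was not tested. Neurl1b (3.85 ± 0.26 in B6, 2.94 ± 0.25 in WSB), Nrarp and Hes6 were higher in both, Heyl rose in B6 (3.96 ± 0.49) and Poglut1, which adds glucose to the receptors, fell in WSB (-0.99 ± 0.16).

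The genes whose pattern over the 16 group means was most like that of each gene were found by Pearson's r of log2(mean CPM + 1), among genes with a mean of at least 5 CPM. Group means share stages and libraries, so the values are descriptions. For Dll1 they were 4931414P19Rik (0.995), Nrarp (0.992) and Vps72 (0.992), and for Dll3 Igdcc3 (0.997), Usp3 (0.993) and Rad54l2 (0.990). For Hes5 they were Bcl7a (0.987), Peli1 (0.987) and Rnf122 (0.980), for Jag1 Arl5b (0.983), Rnd3 (0.980) and Pax3 (0.978), and for Hes1 Kcnk5 (0.978), Kdelc1 (0.969) and Baiap2l1 (0.961). For Notch1 they were Gtf2i (0.976), Zfp652 (0.975) and Pou3f2 (0.975), and for Notch3 Atad2b (0.989), Unk (0.978) and Cbx5 (0.975). The closest genes were less alike for Notch2 (Stk3 at 0.821, Caskin2 and Gramd4), Lfng (Dbnl at 0.877, Vhl and Bpgm) and Hey1 (Whrn at 0.893, 6530402F18Rik and Abcd2).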

How the data were processed

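The authors deposited estimated counts (expected counts) per gene, made from aligned reads with no scaling between samples that a source states, and 9.32% of these values were not whole. The submitters' processing notes name Bowtie2, RSEM, featureCounts, limma and build GRCm38, with no versions or roles. How reads shared by several genes were divided, and what mapping WSB reads to a B6 assembly does to WSB counts, was not tested. The libraries were polyadenylated, stranded and paired-end, per the labels' protocols.

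Repeat runs were summed, and sums rounded. Counts were tested with edgeR 4.0.16 in R 4.3.3 (TMM scaling, filterByExpr, robust quasi-likelihood test), each stage in its own fit, with the library block of the titles as a covariate at the NPC and axon stages. P-values were adjusted by Benjamini-Hochberg over all genes tested, and an adjusted p under 0.05 is what called or passed means. Levels carry a standard deviation (SD) and log2 differences a standard error (SE). Nothing in the labels says that libraries of a group came from separate stem cell lines, so p-values measure the spread between libraries. Counting intervals are exact (Clopper-Pearson).

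The fits of the NPC, maturation and axon stages recovered changed genes in simulated counts. These counts had the same dispersion for every gene, a fixed size of change and no block or culture effect. They do not show how often smaller or more variable changes are found or wrongly called. Comparisons between stages were not simulated. The alternatives tried were RLE size factors, DESeq2 1.42.0, first runs only, no filter on low counts, other blocks, and leaving out each library in groups of 3 to 5. Each maturation experiment alone, the axon sets less 1 library, and the NPC controls less 1 library were added after seeing the data. The 10 genes, the 45 other pathway genes and the marker lists were chosen with earlier results of these data known. Named are all 10 genes, per comparison up to 4 called pathway genes of smallest p, and the 3 genes most alike in pattern.

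Whether libraries pair was judged by correlating their deviations from the means of their groups, with 0.1 as threshold. Replicate numbers of the titles paired the GT20-12 libraries within each strain (3 of 3 pairs each, lowest 0.123 in B6 and 0.109 in WSB). Across strains 8 of 12 pairs of GT20-12 passed the threshold (lowest -0.023). Culture sets paired the NPC libraries of GT20-16 in 2 of 3 pairs in each strain (lowest 0.054 in B6 and 0.049 in WSB). Culture experiments paired maturation libraries within each strain (8 of 8 pairs each), but 25 of 32 across strains. Culture sets paired the axon libraries of B6 (21 of 21) and 19 of 21 in WSB.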

Additional observations from a re-analysis of the deposited data

Results flagged for a closer look

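The 10 genes in the 14 groups of at least 4 libraries gave 140 combinations, and in 5 of them a library stood apart from the rest of its group by Dixon's test, where chance flags about 1 in 20. The 5 came from 3 libraries. Control B6 NPC replicate 3 was the highest of its group in Notch1 (352 CPM, the others 131 to 201), Notch3 (207 CPM, the others 95.8 to 132.2) and Jag1 (60.2 CPM, the others 28.5 to 39.8). Control WSB NPC replicate 2 held 202 CPM of Notch2, the others 64.7 to 112. Control uncut WSB axon replicate 4, a library of GT20-18, held 15.4 CPM of Jag1, the others 11.7 to 11.9.

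Tests of a difference between the strains singled out 5 values. The ID-8 response of progenitors was higher in WSB than in B6 for Hes5 (2.66), Lfng (1.41) and Dll1 (1.28), on the log2 scale. The change from the NPC to the axon stage was higher in WSB for Notch2 (1.40) and lower for Jag1 (-1.04).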

How the results depend on the processing

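Counts of called genes among the 10 changed most at the NPC stage. The strain difference in controls went from 5 to 1 in GT20-12 alone or without a library block term, and to 2 in GT20-16 alone, with the replicate block in GT20-12, or with culture sets as blocks. Those blocks were set within each strain, so that fit did not compare strain levels within GT20-16. ID-8 in B6 went from 8 to 1 in GT20-12 alone, 5 in GT20-16 alone, and 4 without the block term or with the replicate block. The difference of responses went from 3 to 0 in either block alone, without the block term, and with the replicate block. At maturation, culture experiments as blocks gave 2 in place of 1 for the strain difference in controls, 1 in place of 0 with ID-8, and 1 in place of 0 for the difference of responses. Experiment neuron alone gave 2, 1 and 2 for these and 1 for ID-8 in WSB, and exp1012 alone gave 2 for the strain difference with ID-8 and 1 for the difference of responses. At the axon stage the uncut strain difference gave 2 with first runs only, 4 with DESeq2 and 3 without GT20-18, in place of 1, and the cut one 2 without GT20-18, in place of 4. Axon against maturation in B6 gave 4 in place of 7 with an additive block term, where Lfng (-0.16) and Hey1 (0.15) changed sign, as Lfng did from NPC to maturation (0.86 in B6, 1.74 in WSB). The cause of these shifts was not tested, beyond the fewer libraries of single blocks. Counts over all genes also moved between settings, as given below, so the shifts are not read as particular to the 10 genes. For each maturation experiment alone, first runs only and the fits without GT20-18, counts over all genes are not given here.

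Leaving out 1 library in turn gave 2 to 4 called genes for the cut strain difference, 1 to 3 for the uncut one, 0 to 1 for the maturation strain difference, 1 to 2 for ID-8 in B6 at maturation, 0 to 2 for the strain difference of the stage change, and 5 to 7 for axon against maturation in B6. Counts over all genes moved too. DESeq2 called 1255 in place of 551 for the difference of NPC responses, 1820 in place of 999 for ID-8 in WSB and 340 in place of 78 for the difference of responses at maturation, and 1877 in place of 673 for the strain difference of the stage change. Culture sets of GT20-16 as blocks gave 1748 for the difference of NPC responses, no block term 254, and leaving out control B6 replicate 3 or control WSB replicate 2 gave 280 and 317. Leaving out 1 library gave as few as 511 for ID-8 in WSB at maturation, 40 to 142 for the difference of responses there, as few as 1404 and 1639 for the uncut and cut strain differences at the axon stage (2397 and 2941), and 192 to 1490 for the strain difference of the stage change. No block term gave 1590 and 1933 for those axon differences, and the additive term 4682 for axon against maturation in B6 (7987). For ID-8 in NPC cultures, GT20-12 alone, GT20-16 alone and the replicate block gave 1379, 3880 and 2010 in B6 (6968 with both blocks), 166, 2 and 284 in WSB (1650), and 0, 0 and 1 for their difference (551). Culture experiments as blocks gave 4608 and 4642 for the strain differences at maturation (2505 and 2925), 4823 and 2407 for ID-8 in B6 and WSB (2902 and 999), and 323 for their difference (78). Of 160 group levels, 157 moved by less than 1 SD without TMM scaling. Apart from the axon comparisons in which edgeR called no gene, DESeq2, RLE size factors and no filter changed no other count of called genes by over 1.5 times. Depth limits Hes5 at maturation.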
